A study of Mus musculus with 12 samples.

Results

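The BCL2 family of cell death regulators was followed here through 10 genes of the deposited table, Mcl1, Bcl2a1b, Bcl2l1, Bcl2, Bcl2l11, Pmaip1, Bbc3, Bid, Bax and Bak1. They were taken by symbol from a list that names them, with earlier results of these data known, and all 10 were found among 14541 listed genes. The data are 12 libraries of poly(A) RNA from wild-type mouse microglia, the resident macrophages of the brain, taken from forebrains at postnatal days 7 to 9 with magnetic beads against CD11b. Wells held 40000 to 80000 cells, and each group has 4 libraries collected 6 h after treatment. The Hevin group received 500 nM of the recombinant form of Hevin, a protein secreted by astrocytes. The LPS group received 50 ng/mL lipopolysaccharide, a bacterial cell wall component sensed by Toll-like receptor 4, and the Media group received an equal volume of growth media. Titles number the libraries of each group 1 to 4. Column headers of the deposited table give them group numbers 4 to 7 in the same order, each shared by 1 library per treatment. Whether a number is its own animal or its own culture is not in the labels, and p-values here therefore cover the spread between libraries only.

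Proteins of the BCL2 family decide at the outer mitochondrial membrane whether a cell enters apoptosis. Survival members such as MCL1, A1, BCL-XL and BCL2 hold in check the pore-forming effectors BAX and BAK. BH3-only members such as BIM, NOXA, PUMA and BID, which respond to growth factor loss, damage or death receptor signals, bind the survival members or activate the effectors, and an open pore releases cytochrome c to the apoptosome and its caspases. In macrophages, A1 is known as a target of NF-κB, the transcription factor that acts downstream of Toll-like receptors.

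Depth, counted as whole reads recovered from the FPKM values over the listed genes, was 18343996 to 27361665 reads per library. FPKM (fragments scaled by gene length and library size) is a level per gene length, so levels of different genes can be compared. The deposited values carry a scaling factor per library, and FPKM sums were 313555 ± 12232 in Hevin, 422173 ± 6273 in LPS and 324698 ± 5325 in Media (SD, n = 4 each). The libraries numbered 2 stood apart in all 3 groups. The 7 listed neutrophil markers, S100a9 highest among them, summed to 1617 to 1712 FPKM in these 3 libraries and to 35.4 to 95.2 FPKM in the other 9, while Ly6g was not listed. All 7 microglia markers were present, with summed levels of 884 to 1329 FPKM in Hevin, 400 to 634 FPKM in LPS and 471 to 689 FPKM in Media. Markers of border macrophages also reached high sums, at 557 to 759 FPKM in Hevin, 644 to 807 FPKM in LPS and 768 to 897 FPKM in Media. In such bulk RNA, fewer cells of a type and less RNA per cell cannot be told apart.

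Log2 fold changes are given ± SE and were computed from log2(FPKM + 1) with limma, so that changes of low genes come out too small. The fit covered the 11242 genes that reached 1 FPKM in 4 or more libraries. A call needs a Benjamini-Hochberg adjusted p under 0.05 over all of these genes. Both treatments share the 4 Media libraries, so their comparisons with Media are not independent. All 10 genes passed the filter. Bcl2 did so through the group where it was high: 7 libraries reached 1 FPKM, and only 3 of them lie outside Hevin.

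The neighbouring genes Bcl2a1a, Bcl2a1b and Bcl2a1d encode closely similar A1 proteins in the mouse, and the start regions of these genes are shown first because their reads and their promoters are hard to tell apart. Bcl2a1b lies at chr9:89199209-89207827 (GRCm38, GENCODE M21, plus strand), Bcl2a1a at chr9:88956900-88962419 (plus strand) and Bcl2a1d at chr9:88723285-88731914 (minus strand). Of the 100-base windows of Bcl2a1b transcripts, 56.8% occur identically in another gene of this cluster or in the overlapping gene model Gm29094, against 43.5% for Bcl2a1a and 54.7% for Bcl2a1d. How the counting treated such reads is not given in the sources used here, so the split between the copies is uncertain. The sequences directly upstream of the annotated gene starts, from RefSeq on GRCm38.p6, follow 5′ to 3′ on the strand of the gene, with the motif GAGGAAGT, the core of sequences bound by the macrophage factor PU.1, in capitals. They cover chr9:89199023-89199208 (plus strand) for Bcl2a1b, chr9:88956670-88956899 (plus strand) for Bcl2a1a and chr9:88731915-88732100 (minus strand) for Bcl2a1d.
Bcl2a1b: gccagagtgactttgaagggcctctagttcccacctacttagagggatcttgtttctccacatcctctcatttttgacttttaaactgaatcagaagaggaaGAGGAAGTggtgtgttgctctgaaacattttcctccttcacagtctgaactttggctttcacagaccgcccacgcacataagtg
Bcl2a1a: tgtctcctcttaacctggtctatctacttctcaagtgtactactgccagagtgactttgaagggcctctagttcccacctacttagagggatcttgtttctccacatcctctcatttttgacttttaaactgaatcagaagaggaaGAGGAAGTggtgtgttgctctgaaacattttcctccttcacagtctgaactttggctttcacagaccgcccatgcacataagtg
Bcl2a1d: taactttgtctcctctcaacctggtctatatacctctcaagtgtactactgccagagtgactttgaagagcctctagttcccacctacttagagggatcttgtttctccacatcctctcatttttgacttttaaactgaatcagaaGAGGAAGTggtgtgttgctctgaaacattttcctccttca
Over 186 aligned bases the Bcl2a1b and Bcl2a1a stretches were 99.5% identical, and over 136 aligned bases those of Bcl2a1b and Bcl2a1d were 99.3% identical, not counting a stretch of 6 bases beside the marked motif that Bcl2a1b has and Bcl2a1d lacks. Searched on both strands, GAGGAAGT was present in 3.11% of 32544 RefSeq promoter windows of 300 bases, among them those of Bcl2a1a, Bcl2a1b, Bcl2a1d, Bak1 and Bad. A consensus for NF-κB, the κB site, also searched on both strands, was present in 4.53% of these windows. It occurred in windows of Bcl2l1, Bbc3 and Bmf, and its letters were not in those of Mcl1, Bcl2l11 or the 3 Bcl2a1 genes. Bcl2l1, Bbc3 and Bmf had 3 windows each, against 2 for Bcl2l11 and 1 each for Mcl1 and the Bcl2a1 genes. Pmaip1, Bik and Bnip3l had 0 windows and were not searched for either motif. A match or its absence is only a description of these letters.

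In Hevin-treated microglia 2 of the 10 genes differed from Media, Bcl2 being higher and Pmaip1 lower. Bcl2 is counted here and in Hevin against LPS although it passed the filter only through Hevin. In LPS-treated microglia 4 of the 10 were higher than in Media, the survival genes Bcl2a1b and Mcl1 and the BH3-only genes Bcl2l11 and Pmaip1. By limma 0 were lower, against 1 each at an unadjusted p under 0.05 and by limma-voom. With the replicate number as a block, 2 were lower. Between the treatments 6 differed, with Bcl2 and Bak1 higher in Hevin than in LPS and Bcl2a1b, Mcl1, Bcl2l11 and Pmaip1 lower. The share of all tested genes called was 7.37% for Hevin against Media (4.27% higher and 3.1% lower), 25.8% for LPS against Media (13.2% higher and 12.6% lower) and 41.7% for Hevin against LPS (22% higher and 19.7% lower). The libraries of the 2 groups did not overlap for 2 genes in Hevin against Media, where 16.6% of tested genes did not overlap, for 4 in LPS against Media (25.6%) and for 6 in Hevin against LPS (37.5%). The median log2 fold change of the 10 genes was -0.015 in Hevin against Media, 0.12 in LPS against Media and -0.11 in Hevin against LPS. Over all tested genes the medians in the same order were 0.0002, -0.024 and 0.016.

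With the replicate number as a block, 7 of the 10 genes were called in LPS against Media, where the block called 43.7% of all tested genes. The added calls were Bid, which was higher, and Bcl2l1 and Bak1, which were lower. In Hevin against Media the block called 21.4% of all tested genes and added Bid. In Hevin against LPS it called 57.9% and added Bcl2l1. By direction, the block called 10.8% of all tested genes higher and 10.6% lower in Hevin against Media, and 21.5% higher and 22.2% lower in LPS against Media. At an unadjusted p under 0.05 in limma, 10.7% were higher and 9.83% lower in Hevin against Media, and 17.8% higher and 19.6% lower in LPS against Media. By limma-voom, 4.55% were called higher and 3.14% lower in Hevin against Media, and 12.9% higher and 12.3% lower in LPS against Media.

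**Figure D1:**
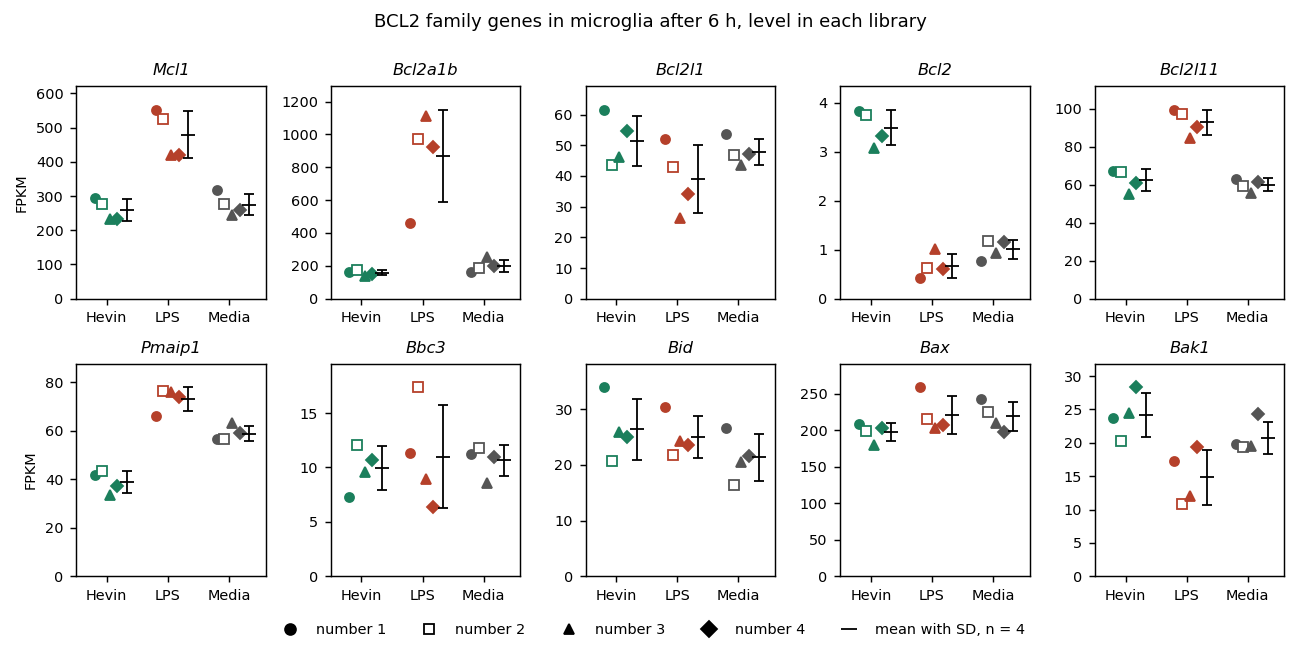
FPKM of each of the 10 BCL2 family genes (vertical axes from 0) in the Hevin, LPS and Media libraries, with 1 symbol per replicate number and the mean with SD (n = 4) beside each group. Bcl2 lies at 3.07 to 3.83 FPKM in Hevin and at or below 1.17 FPKM elsewhere, Bcl2a1b reaches 1115 FPKM in LPS, and Bax lies between 180 and 259 FPKM in all 12 libraries.

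**Figure D2:**
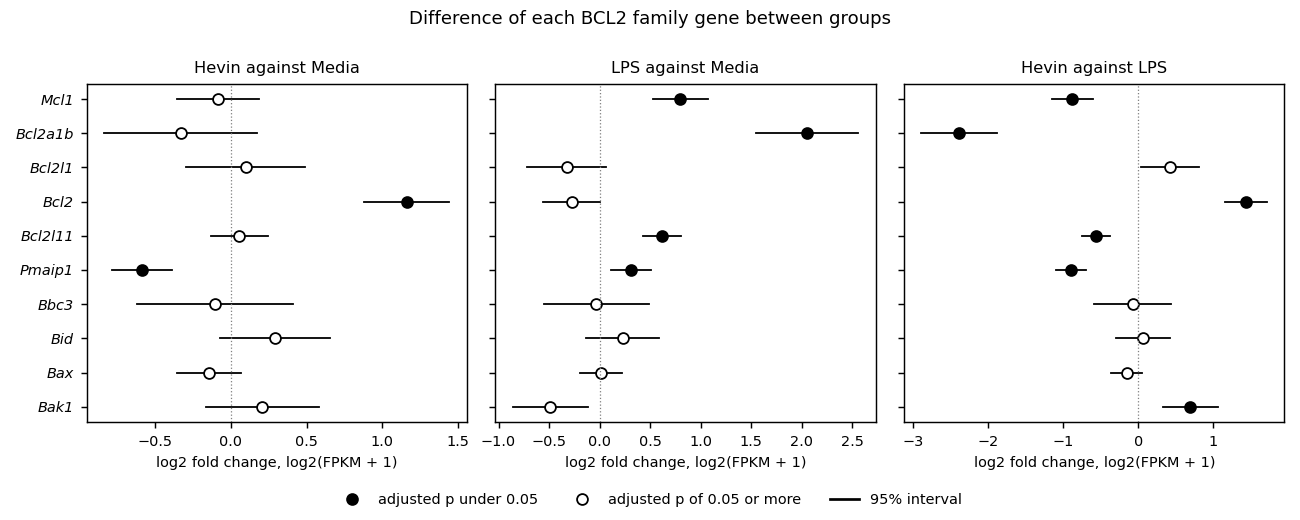
Log2 fold change (horizontal axes, log2(FPKM + 1) scale) of each of the 10 genes in the 3 comparisons, with 95% intervals from limma and filled points for an adjusted p under 0.05. The filled points are 2 in Hevin against Media, 4 in LPS against Media and 6 in Hevin against LPS.

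Among the survival genes, Bcl2 (chr1:106538178-106714274), the founding member of the family, had the largest difference between Hevin and Media among the 10 genes. Its level was 3.83, 3.76, 3.07 and 3.32 FPKM in Hevin libraries 1 to 4, 0.422, 0.626, 1.01 and 0.610 FPKM in LPS, and 0.771, 1.17, 0.936 and 1.16 FPKM in Media. All 4 Hevin libraries lay above all 8 others, while LPS and Media overlapped. Bcl2 averaged 3.50 ± 0.362 FPKM in Hevin and 1.01 ± 0.194 FPKM in Media (SD, n = 4 each), a ratio of 3.46 (log2 fold change 1.16 ± 0.13, limma adjusted p = 1.86e-04). These levels rest on 668 to 824 reads per library in Hevin, 67 to 192 in LPS and 158 to 254 in Media. The fold depends on the pseudocount at this level, from 0.50 with a pseudocount of 5 to 1.71 with 0.1 and 1.81 with limma-voom on whole reads, and the call held in each. Against LPS, Bcl2 was 5.23 times as high in Hevin (1.44 ± 0.13 on the log2 scale, limma adjusted p = 4.70e-06). Bcl2 passed the filter only through Hevin, so its p-values in both comparisons with Hevin are no independent support. Both calls were also made in the fit with no filter. LPS against Media gave -0.28 ± 0.13 for Bcl2 (limma adjusted p = 0.140). Even in Hevin, Bcl2 was the lowest of the 10 genes, below Bbc3 with no overlap. Summed microglia markers were higher in Hevin as well, and their part in the Bcl2 difference was not tested.

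Bcl2a1b, one of the A1 survival genes, had the largest difference of the 10 genes between LPS and Media. It stood at 161, 177, 141 and 151 FPKM in Hevin libraries 1 to 4. In LPS the values were 463, 972, 1115 and 920 FPKM, and in Media 162, 186, 251 and 201 FPKM. Every LPS library exceeded every other library, and LPS 1 lay well below the other LPS libraries. The LPS mean was 867 ± 282 FPKM, against 200.4 ± 37.6 FPKM in Media (SD, n = 4 each), a ratio of 4.33 (log2 fold change 2.05 ± 0.23, limma adjusted p = 6.27e-05). Without LPS 1 the log2 fold change was 2.33. Hevin against LPS gave -2.39 ± 0.23 for Bcl2a1b (limma adjusted p = 9.20e-06). In Hevin, Bcl2a1b was below Media in 4 of 4 numbers, but the groups overlapped and the difference did not pass (-0.33 ± 0.23, limma adjusted p = 0.481). Its share of the summed FPKM of the 4 survival genes was 33.4% ± 1.80 in Hevin, 61.2% ± 12.3 in LPS and 38.2% ± 6.68 in Media (SD, n = 4 each).

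The copies Bcl2a1a and Bcl2a1d showed the same order of groups. Bcl2a1a stood at 75.5, 208, 207 and 183 FPKM in LPS libraries 1 to 4, against 19.0, 26.3, 35.6 and 33.0 FPKM in Media, and Bcl2a1d at 143, 323, 400.5 and 332 FPKM in LPS, against 36.5, 50.2, 65.5 and 56.2 FPKM in Media. LPS 1 was again the lowest LPS library for both, and Media 1 the lowest Media library. Both were called higher in LPS (2.45 ± 0.29 on the log2 scale, limma adjusted p = 9.40e-05 for Bcl2a1a and 2.43 ± 0.27, adjusted p = 5.98e-05 for Bcl2a1d). In Hevin, Bcl2a1a stood at 17.0 to 20.8 FPKM and Bcl2a1d at 29.8 to 37.8 FPKM, below Media in 4 of 4 numbers each. The difference of Bcl2a1d between Hevin and Media was -0.63 ± 0.27 (limma adjusted p = 0.217), and it was called lower with the replicate block (limma adjusted p = 0.0266) and without LPS 1 (limma adjusted p = 0.0358). The copies share reads, and how such reads were counted could also move the sum of the 3 copies, which was 209 ± 19.0 FPKM in Hevin, 1335 ± 453 FPKM in LPS and 281 ± 56.3 FPKM in Media (SD, n = 4 each).

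Mcl1 (chr3:95658788-95663176) encodes a short-lived survival protein on which many myeloid cells depend. It measured 294, 277, 234 and 233 FPKM in Hevin libraries 1 to 4, 552, 526, 421 and 419 FPKM in LPS and 317, 277, 245 and 259 FPKM in Media. The 4 LPS libraries lay above the other 8, and Hevin and Media overlapped. Mcl1 averaged 480 ± 69.4 FPKM in LPS and 275 ± 31.2 FPKM in Media (SD, n = 4 each), a ratio of 1.75 (log2 fold change 0.80 ± 0.12, limma adjusted p = 6.95e-04). Quantile normalization ended this call (log2 fold change 0.30, limma adjusted p = 0.0957). The difference of Hevin against Media was -0.083 ± 0.12 with a 95% interval of -0.35 to 0.19. Mcl1 was lower in Hevin than in LPS (-0.88 ± 0.12, limma adjusted p = 1.69e-04), a call that quantile normalization also ended (-0.29, limma adjusted p = 0.0790). Mcl1 had the highest mean of the 10 genes in Hevin and Media, and ranked after Bcl2a1b in LPS, where the libraries of both genes overlapped.

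Neutrophils are known to express both Mcl1 and A1, and their markers were high in the libraries numbered 2. Without these 3 libraries the log2 fold change of Mcl1 in LPS against Media was 0.76 (limma adjusted p = 0.00769), that of Bcl2a1b 1.95 (limma adjusted p = 0.00171) and that of Bcl2 in Hevin against Media 1.17 (limma adjusted p = 0.00389). All 3 calls held there. Neutrophil markers still summed to 35.4 to 95.2 FPKM in the remaining libraries. Limma called 0 of the 7 in any comparison, but without the block the high libraries numbered 2 widen its SE. For S100a9 in LPS against Media the SE was 1.52, against 0.18 with the block. The missing calls therefore do not show equal levels. With the block 2 were higher and 0 lower in LPS against Media, where 21.5% of all tested genes were higher. In Hevin against LPS 0 were higher and 4 lower with the block, where 3149 of all 11242 tested genes were called lower. The part of neutrophil RNA in the differences of Mcl1, Bcl2a1b and Bcl2 was not tested. All 6 astrocyte markers were listed, but only 2 had a mean of 1 FPKM or more in LPS and in Hevin, and 3 in Media. Their sum was 112 to 233 FPKM in LPS, against 49.4 to 84.3 FPKM in Media, mostly from Gja1. It was 20.5 to 42.9 FPKM in Hevin, and the part of these markers in the differences of Mcl1 and Bcl2a1b was not tested.

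Bcl2l1 (chr2:152780668-152831728), the gene of BCL-XL, had 61.5, 43.5, 46.2 and 54.6 FPKM in Hevin libraries 1 to 4, 52.2, 43.0, 26.4 and 34.2 FPKM in LPS and 53.7, 46.7, 43.5 and 47.0 FPKM in Media. LPS was below Media in 4 of 4 numbers, with groups that overlapped. The difference of LPS against Media was -0.33 ± 0.18 (limma adjusted p = 0.212), and with the replicate block it was called lower (limma adjusted p = 0.0434). Hevin against LPS gave 0.42 ± 0.18 (limma adjusted p = 0.0784), called higher with the block (limma adjusted p = 0.00981) and without LPS 1 (limma adjusted p = 0.0161). The related gene Bcl2l2, which encodes BCL-W, stood between 6.61 and 8.68 FPKM in all 12 libraries and was not called in any comparison, with a 95% interval of -0.33 to 0.11 for LPS against Media. With TPM scaling Bcl2l2 was called lower in LPS than in Media (-0.48, limma adjusted p = 0.00463) and higher in Hevin than in LPS (0.40, limma adjusted p = 0.0105).

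Among the BH3-only genes, Pmaip1 (chr18:66458533-66465565) encodes NOXA, which binds MCL1 and A1. Its level was 41.7, 43.2, 33.6 and 37.1 FPKM in Hevin libraries 1 to 4, 66.0, 76.4, 75.9 and 74.1 FPKM in LPS and 56.6, 56.4, 63.1 and 59.3 FPKM in Media. The 3 groups did not overlap, with Hevin lowest and LPS highest. The Hevin mean was 38.9 ± 4.40 FPKM, against 58.9 ± 3.09 FPKM in Media (SD, n = 4 each), a log2 fold change of -0.59 ± 0.09 (limma adjusted p = 0.00188). Without number 2 it was -0.66 (limma adjusted p = 0.00721).

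The call of Pmaip1 in LPS against Media was less firm. The LPS mean was 73.1 ± 4.83 FPKM, and the log2 fold change over Media was 0.31 ± 0.09 (limma adjusted p = 0.0273). Leaving out LPS 2, LPS 3, LPS 4, Media 1, Media 2 or Media 4 ended it (limma adjusted p of 0.0582 to 0.0677), as did leaving out all libraries numbered 2 (limma adjusted p = 0.0934). With values rescaled to the same sum in every library, called TPM scaling here, the sign turned (-0.067, limma adjusted p = 0.531). Upper quartile scaling (0.19, limma adjusted p = 0.157) and quantile normalization (0.020, limma adjusted p = 0.911) ended the call too. Hevin against LPS, at -0.90 ± 0.09, passed in every alternative run (limma adjusted p = 1.24e-05).

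Bcl2l11 (chr2:128126038-128162547) encodes BIM, a BH3-only protein that binds all survival members. It had 67.4, 66.9, 55.0 and 60.7 FPKM in Hevin libraries 1 to 4, 99.1, 97.2, 84.8 and 90.5 FPKM in LPS and 63.2, 59.6, 55.6 and 61.7 FPKM in Media. Every LPS library lay above the other 8 libraries, and the spread within each group was small. Bcl2l11 averaged 92.9 ± 6.55 FPKM in LPS and 60.0 ± 3.31 FPKM in Media (SD, n = 4 each), a ratio of 1.55 (log2 fold change 0.62 ± 0.09, limma adjusted p = 3.06e-04). Hevin and Media averaged 62.5 ± 5.84 and 60.0 ± 3.31 FPKM in this order, and the 95% interval of their difference was -0.13 to 0.24. Its level in Hevin was below that in LPS (-0.57 ± 0.09, limma adjusted p = 3.10e-04), a call that TPM scaling ended (-0.14, limma adjusted p = 0.0985).

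Bbc3 (chr7:16308393-16318205), the gene of the p53 target PUMA, ranged from 7.33 to 12.1 FPKM in Hevin, 6.34 to 17.4 FPKM in LPS and 8.60 to 11.8 FPKM in Media. Its 3 groups overlapped, and its differences had wide intervals, from -0.62 to 0.41 for Hevin against Media and -0.55 to 0.49 for LPS against Media. Bid (chr6:120891930-120916853), whose product is cleaved by caspase 8, stood at 33.9, 20.6, 25.9 and 25.0 FPKM in Hevin libraries 1 to 4, 30.4, 21.8, 24.3 and 23.5 FPKM in LPS and 26.7, 16.5, 20.6 and 21.6 FPKM in Media. Within each number Hevin and LPS were both above Media, while library 1 was the highest and library 2 the lowest in each group. Hevin against Media gave 0.29 ± 0.17 (limma adjusted p = 0.368) and LPS against Media 0.23 ± 0.17 (limma adjusted p = 0.354). With the replicate block both were called higher (limma adjusted p = 0.00883 and 0.0153 in this order). TPM scaling turned the sign of LPS against Media (-0.14, limma adjusted p = 0.497), and under it Bid was called higher in Hevin than in LPS (0.49, limma adjusted p = 0.0223).

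The effectors are Bax and Bak1, whose proteins form the pore. Bax (chr7:45461697-45466898) had 208, 199, 180 and 203 FPKM in Hevin libraries 1 to 4, 259, 215, 203 and 207 FPKM in LPS and 243, 225, 209.7 and 198 FPKM in Media. The 3 groups overlapped, and LPS against Media gave 0.012 ± 0.10 with a 95% interval of -0.20 to 0.22. The sign for Bax depends on the scaling: with TPM scaling LPS was lower than Media (-0.37, limma adjusted p = 0.00319), and likewise with quantile normalization (-0.44, limma adjusted p = 0.00382). Bak1 (chr17:27019810-27029009) stood at 23.7, 20.2, 24.4 and 28.3 FPKM in Hevin libraries 1 to 4, 17.2, 10.8, 12 and 19.4 FPKM in LPS and 19.8, 19.3, 19.5 and 24.4 FPKM in Media. All Hevin libraries exceeded all LPS libraries, while 1 LPS library reached into the Media range. Hevin was higher than LPS (log2 fold change 0.70 ± 0.17, limma adjusted p = 0.00644). LPS against Media, at -0.49 ± 0.17, did not pass (limma adjusted p = 0.0529), and Bak1 was called lower with the block (limma adjusted p = 0.00280), by limma-voom (adjusted p = 0.0442), without LPS 1 (limma adjusted p = 0.0390) and without LPS 4 (limma adjusted p = 0.0192).

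Several of these genes overlap others, and the use of strand in counting is not given in the sources used here. Exons of Bid overlap those of Bcl2l13 by 628 bases, and exons of Bcl2 overlap those of the antisense gene D630008O14Rik by 558 bases, each on opposite strands. Bak1 overlaps Ggnbp1 likewise. If strand was not used, reads of such partners cannot be told apart. Bax shares 5.33% of its 100-base windows with the gene model Gm45808, which overlaps it on the same strand.

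TPM scaling moved the median of all tested genes by -0.35 in LPS against Media and by 0.40 in Hevin against LPS, so differences involving LPS are best read relative to it. Under it Bcl2a1b (1.68), Mcl1 (0.42) and Bcl2l11 (0.25) were still called higher in LPS than in Media, while Bak1 (-0.88), Bcl2l1 (-0.71), Bcl2 (-0.69) and Bax (-0.37) were called lower. The split of members higher and lower was thus 3 and 4 in place of 4 and 0, within 669 and 5615 of all genes in place of 1484 and 1413. Upper quartile scaling gave 3 and 2 members (1136 and 2466 of all genes), and quantile normalization 2 and 3 (1118 and 1664 of all genes). In Hevin against LPS the members split into 2 higher and 4 lower (2470 and 2215 of all genes), 5 and 3 with TPM scaling (5983 and 851 of all genes), 3 and 4 with upper quartile scaling (3437 and 1643 of all genes) and 4 and 3 with quantile normalization (2439 and 1741 of all genes). In Hevin against Media each scaling gave 1 member higher and 1 lower.

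The summed FPKM of the 4 survival genes was 472 ± 46.5 in Hevin, 1387 ± 229 in LPS and 524 ± 16.1 in Media (SD, n = 4 each). The 4 BH3-only genes summed to 138 ± 11.4 FPKM in Hevin, 202 ± 9.30 FPKM in LPS and 151 ± 6.03 FPKM in Media. Bax and Bak1 together summed to 222 ± 12.9 FPKM in Hevin, 236 ± 27.2 FPKM in LPS and 240 ± 17.9 FPKM in Media. Survival genes made up 56.7% ± 1.49 of the 10-gene sum in Hevin, 75.6% ± 4.65 in LPS and 57.3% ± 1.26 in Media. The share in every LPS library, from 68.9% to 79.3%, lay above those of the other 8 libraries, and shares within a library do not depend on its scaling factor. BH3-only genes held 16.6% ± 0.0685 in Hevin, 11.2% ± 1.51 in LPS and 16.5% ± 0.611 in Media. These sums describe RNA levels and are dominated by Mcl1, Bcl2a1b and Bax.

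**Figure D3:**
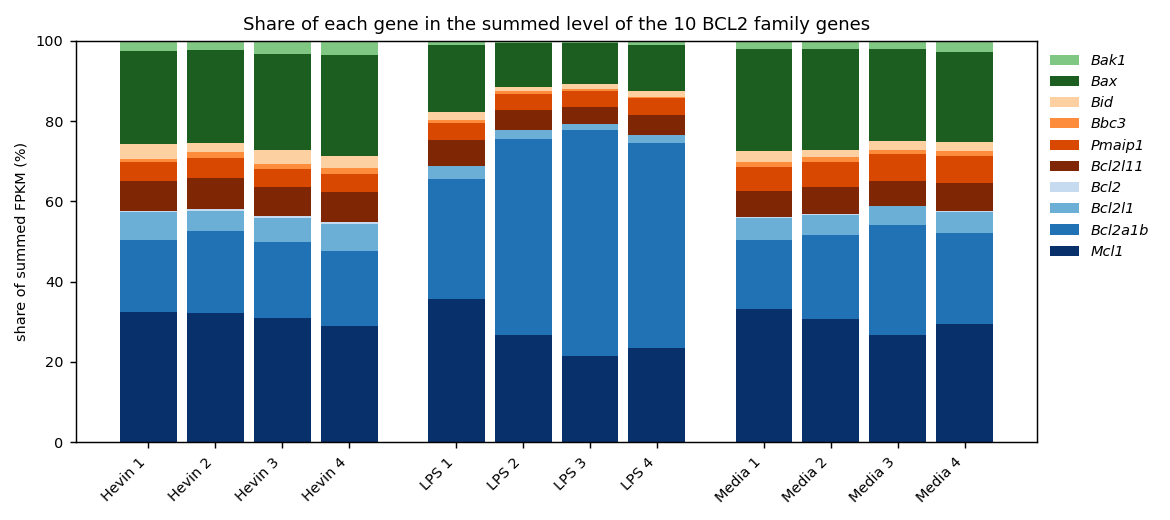
Share of each gene (vertical axis, percent) in the summed FPKM of the 10 BCL2 family genes in each library, with survival genes in blue, BH3-only genes in orange and brown and effectors in green. The blue part covers 68.9% to 79.3% in the 4 LPS libraries and 54.8% to 58.9% in the other 8.

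The order of levels was similar in the 3 groups. In Hevin, Mcl1 (259 FPKM), Bax (198 FPKM) and Bcl2a1b (157 FPKM) led without overlap between neighbours, followed by Bcl2l11 and Bcl2l1, whose libraries overlapped. Pmaip1, Bid and Bak1 came next, each overlapping its neighbour, and then Bbc3 and Bcl2. In LPS, Bcl2a1b and Mcl1 overlapped at the top, and Bax, Bcl2l11 and Pmaip1 followed without overlap. Further down, Bcl2l1 overlapped Bid and Bak1 overlapped Bbc3. In Media, Bax overlapped Bcl2a1b, Bcl2l11 overlapped Pmaip1 and Bid overlapped Bak1.

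Of 16 other BCL2 genes looked for, 13 were listed and 11 were tested. Hrk, with means of 0.209 to 0.259 FPKM in the treated groups and 0.208 FPKM in Media, and Bcl2l15, at 0.182 and 0.229 FPKM in Hevin and LPS and 0.163 FPKM in Media, were too low to test. Bmf (chr2:118528757-118549687) encodes a BH3-only protein linked to the actin cytoskeleton, and it was called in all 3 comparisons. It stood at 11.5, 11.9, 9.55 and 10.8 FPKM in Hevin libraries 1 to 4, 1.89, 0.656, 1.34 and 1.06 FPKM in LPS and 4.90, 4.64, 3.63 and 2.96 FPKM in Media. The 3 groups did not overlap, with Hevin highest and LPS lowest. Its mean was 10.9 ± 1.03 FPKM in Hevin and 4.03 ± 0.902 FPKM in Media (SD, n = 4 each), 2.71 times as high (log2 fold change 1.26 ± 0.17, limma adjusted p = 8.70e-04). The LPS mean was 1.24 ± 0.521 FPKM, 0.307 times that of Media (log2 fold change -1.18 ± 0.17, limma adjusted p = 4.37e-04). Bmf was 8.84 times as high in Hevin as in LPS (2.44 ± 0.17 on the log2 scale, limma adjusted p = 6.71e-07). A pseudocount of 5 gave 0.82 for Hevin against Media and -0.53 for LPS against Media, TPM scaling gave -1.80 for LPS against Media, and all 3 calls held in every alternative run. On the deposited scale, Bmf and Pmaip1, both BH3-only genes, had opposite orders of the 3 groups. TPM scaling turned the sign of Pmaip1 in LPS against Media, so that the opposite order did not hold under it.

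Bnip3l, which encodes the mitophagy receptor NIX, stood at 24.8, 33.6, 23.6 and 24.0 FPKM in Hevin libraries 1 to 4, 13.1, 16.1, 13.5 and 11.4 FPKM in LPS and 15.0, 15.6, 13.5 and 15.2 FPKM in Media. All Hevin libraries lay above the others. It was higher in Hevin than in Media (log2 fold change 0.78 ± 0.12, limma adjusted p = 0.00229), and 14.0% of its 100-base windows occur also in its pseudogene. LPS against Media gave -0.13 ± 0.12 for Bnip3l (limma adjusted p = 0.482; called lower with TPM scaling, at -0.51, limma adjusted p = 0.00474), and Hevin was higher than LPS (0.92 ± 0.12, limma adjusted p = 1.28e-04).

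Bad, a BH3-only gene whose protein is held inactive by growth factor signalling, was higher in Hevin than in LPS, at 8.31 ± 1.32 and 5.96 ± 1.20 FPKM in this order (log2 fold change 0.43 ± 0.14, limma adjusted p = 0.0326). Leaving out Hevin 1, Hevin 3, Hevin 4, LPS 2 or LPS 3 ended that call (limma adjusted p of 0.0579 to 0.0968), as did quantile normalization (limma adjusted p = 0.0804) and a fit of both groups alone (limma adjusted p = 0.0632). Bcl2l12 was higher in Hevin than in LPS (0.65 ± 0.19, limma adjusted p = 0.0169), and the call ended without Hevin 4 (limma adjusted p = 0.0512), without LPS 3 (limma adjusted p = 0.0502) and with quantile normalization (limma adjusted p = 0.0531). Bik, a BH3-only gene of the endoplasmic reticulum, was low, at 1.31 ± 0.482 FPKM in LPS and 2.14 ± 0.628 FPKM in Media, and LPS lay below Media in 4 of 4 numbers (-0.45 ± 0.18, limma adjusted p = 0.0879).

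With the replicate block Bik (limma adjusted p = 0.00373), Bad (limma adjusted p = 0.0138) and Bcl2l12 (limma adjusted p = 0.0420) were called lower in LPS than in Media. Bnip3 (limma adjusted p = 8.63e-04) and Bok (limma adjusted p = 0.0109) were called higher in Hevin than in LPS with the block. Bok passed the filter through Hevin, since outside it only Media 2 (1.01 FPKM) and Media 3 (1.00 FPKM) reached 1 FPKM. The Bok call is therefore no independent support, and Bok had 5 to 34 reads in LPS. Bok, an effector-like gene, ranged from 0.327 to 3.41 FPKM in Hevin, 0.170 to 0.971 FPKM in LPS and 0.0528 to 1.01 FPKM in Media, and it was lowest in library 1 of each group. Summed endothelial markers were lowest in the libraries numbered 1 (26.3 to 30.0 FPKM) and highest in those numbered 3 (138 to 156 FPKM), and their part in the Bok values was not tested. Bcl2l13 lay between 7.18 and 8.69 FPKM in all 12 libraries and was not called in any comparison. With TPM scaling Bcl2l13 was called lower in LPS than in Media (-0.32, limma adjusted p = 0.00766) and higher in Hevin than in LPS (0.40, limma adjusted p = 0.00147), both with a turned sign.

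**Figure D4:**
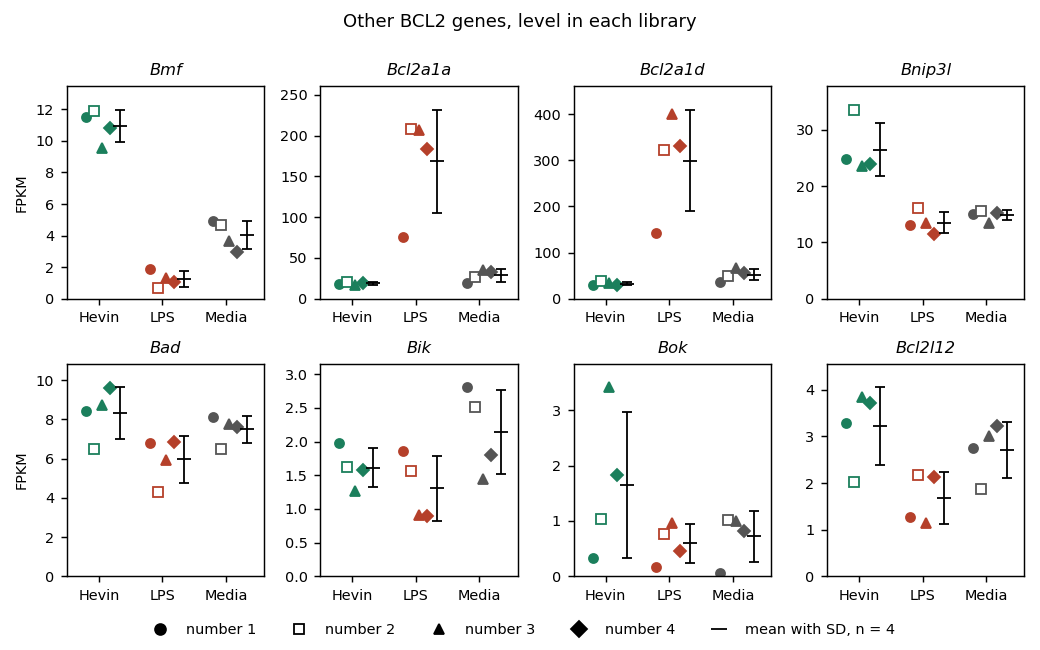
FPKM (vertical axes from 0) of 8 other BCL2 genes in the Hevin, LPS and Media libraries, with 1 symbol per replicate number and the mean with SD (n = 4) beside each group. Bmf and Bnip3l lie above the other groups in all 4 Hevin libraries, Bmf is at or below 1.89 FPKM in all 4 LPS libraries, and Bcl2a1a and Bcl2a1d are lowest in LPS 1 among the LPS libraries.

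Around the family, genes that act after the mitochondrial pore were mixed. Of 10 tested genes of the apoptosome and caspases, 1 was called higher in Hevin than in Media and 0 lower by limma (3 and 1 with the block and at an unadjusted p under 0.05, 1 and 1 by limma-voom), with a median log2 fold change of 0.19, against 0.0002 over all tested genes. Over all tested genes 4.27% were higher by limma, 10.8% with the block, 10.7% at an unadjusted p under 0.05 and 4.55% by limma-voom. The gene called higher by limma was Casp2, an initiator caspase. It stood at 7.84, 9.15, 7.82 and 8.08 FPKM in Hevin libraries 1 to 4, against 5.01, 3.66, 4.58 and 4.82 FPKM in Media (log2 fold change 0.75 ± 0.10, limma adjusted p = 7.17e-04). In LPS against Media 3 were higher and 2 lower (4 and 4 with the block), with a median of -0.031 against -0.024 over all tested genes. Of all tested genes 13.2% were higher and 12.6% lower by limma, and 21.5% and 22.2% with the block. Casp6, an effector caspase, averaged 6.86 FPKM in LPS and 3.80 FPKM in Media (0.68 ± 0.17, limma adjusted p = 0.0124). Apaf1, the scaffold of the apoptosome, averaged 27.6 FPKM in LPS and 19.1 FPKM in Media (0.50 ± 0.11, limma adjusted p = 0.00625). TPM scaling ended the calls of Casp6 (0.41, limma adjusted p = 0.0953) and Apaf1 (0.14, limma adjusted p = 0.275). Casp9, the caspase that the apoptosome activates, was lower in LPS, at 8.11 FPKM against 12.9 FPKM in Media (-0.62 ± 0.12, limma adjusted p = 0.00342). Casp9 averaged 15.1 FPKM in Hevin (0.22 ± 0.12 over Media, limma adjusted p = 0.366), and was called higher there with the block (limma adjusted p = 0.0470). Htra2, a mitochondrial protease, averaged 12.6 FPKM in LPS and 18.3 FPKM in Media (-0.50 ± 0.16, limma adjusted p = 0.0424). The call was lost without number 2 (limma adjusted p = 0.112) and without any 1 of 10 single libraries, all but LPS 1 and Media 3 (limma adjusted p of 0.0522 to 0.115).

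Of 5 inhibitor of apoptosis genes, 2 were called higher and 0 lower in LPS against Media by limma, at an unadjusted p under 0.05 and by limma-voom (median 0.29, against -0.024 over all tested genes), and 3 and 0 with the block. Over all tested genes these ways called 13.2%, 17.8% and 12.9% higher in this order, and 21.5% with the block. In Hevin against Media 0 were called in each of these ways. Birc3, which encodes the ubiquitin ligase cIAP2, had 168, 152, 161 and 183 FPKM in LPS libraries 1 to 4, against 44.1, 32.1, 39.4 and 40.8 FPKM in Media (log2 fold change 2.06 ± 0.11, limma adjusted p = 2.16e-07). Birc2, the gene of cIAP1, was 2.47 times as high in LPS as in Media (1.19 ± 0.11, limma adjusted p = 1.10e-05). Of 12 tested death receptor and necroptosis genes, 4 were called higher and 0 lower in LPS against Media by limma (median 0.34), 4 and 0 by limma-voom, 6 and 1 at an unadjusted p under 0.05 and 8 and 2 with the block, where 13.2%, 12.9%, 17.8% and 21.5% of all tested genes were higher in this order. Cflar, whose product FLIP restrains caspase 8, stood at 113, 129, 118 and 120 FPKM in LPS, against 31.8, 30.2, 30.2 and 28.4 FPKM in Media (1.96 ± 0.08, limma adjusted p = 1.75e-08). The death receptor gene Fas averaged 31.2 FPKM in LPS and 9.17 FPKM in Media (1.71 ± 0.27, limma adjusted p = 6.73e-04). The list thus holds both an inhibitor and a receptor of the pathway among the genes that rose.

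In Hevin against Media limma called 1 of these 12 genes, which was lower, and the block called 4, all lower. Over all tested genes limma called 3.1% lower and the block 10.6%. The gene called by limma was Ripk3, a kinase of necroptosis. It stood at 25.0, 27.8, 34.6 and 40.5 FPKM in Hevin libraries 1 to 4, against 47.4, 67.4, 81.1 and 76.8 FPKM in Media, with no overlap (-1.07 ± 0.18, limma adjusted p = 0.00348). LPS against Media gave -0.29 ± 0.18 for Ripk3 (limma adjusted p = 0.272), called lower with the block (limma adjusted p = 0.0201). Fas averaged 4.95 FPKM in Hevin and 9.17 FPKM in Media (-0.76 ± 0.27, limma adjusted p = 0.118). It was called lower with the block (limma adjusted p = 0.00104), without number 2 (limma adjusted p = 0.00459) and without Media 2 (limma adjusted p = 0.0193).

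Regulators upstream of the BH3-only genes were measured too. Of 11 tested genes of p53 and its targets, 0 were called in Hevin against Media by limma or limma-voom (1 higher and 1 lower with the block, 1 and 2 at an unadjusted p under 0.05). Of all tested genes the block called 10.8% higher and 10.6% lower there, and 10.7% and 9.83% passed the unadjusted threshold. In LPS against Media 3 were higher and 0 lower by limma and by limma-voom. The counts were 4 and 0 at an unadjusted p under 0.05 and 5 and 1 with the block. Of all tested genes 13.2%, 12.9%, 17.8% and 21.5% were higher in these 4 ways, in this order. The median was -0.022, against -0.024 over all tested genes. Mdm2, the ubiquitin ligase of p53, averaged 232 FPKM in LPS and 129 FPKM in Media (0.84 ± 0.19, limma adjusted p = 0.00663), with no call under TPM scaling (0.47, limma adjusted p = 0.0520) or quantile normalization (0.40, limma adjusted p = 0.139). Cdkn1a, the gene of the cell cycle inhibitor p21, averaged 691 FPKM in LPS and 489 FPKM in Media (0.50 ± 0.08, limma adjusted p = 0.00103), with no call under TPM scaling (0.12, limma adjusted p = 0.297) and a turned sign under quantile normalization (-0.19, limma adjusted p = 0.233). Of 4 tested genes for transcription factors of BH3-only genes, limma called 1 lower and 0 higher in each treatment against Media. Over all tested genes limma called 3.1% lower in Hevin and 12.6% in LPS. With the block 1 was lower in Hevin and 2 in LPS, against 10.6% and 22.2% of all tested genes. The medians were -0.012 in Hevin and -0.26 in LPS, against 0.0002 and -0.024 over all tested genes. The gene called by limma in both treatments was Ddit3, the gene of the stress factor CHOP. It had 84.0, 104, 83.9 and 80.4 FPKM in Hevin and 82.3, 87.6, 65.8 and 68.5 FPKM in LPS, against 115, 157, 132 and 113 FPKM in Media. LPS against Media gave -0.76 ± 0.13 for Ddit3 (limma adjusted p = 0.00141). Hevin against Media gave -0.54 ± 0.13 (limma adjusted p = 0.0251), which ended without Hevin 1, Hevin 3, Hevin 4, Media 2 or Media 3 (limma adjusted p of 0.0667 to 0.0796). Of 4 tested genes of MCL1 turnover and 3 voltage-dependent anion channels, 0 were called in either treatment against Media by limma or limma-voom. At an unadjusted p under 0.05, 1 MCL1 turnover gene was higher and 1 channel gene lower in LPS. With the block 2 MCL1 turnover genes were higher and 1 lower in LPS, and 1 channel gene was lower. Of all tested genes 17.8% were higher and 19.6% lower at the unadjusted threshold, and 21.5% and 22.2% with the block.

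**Figure D5:**
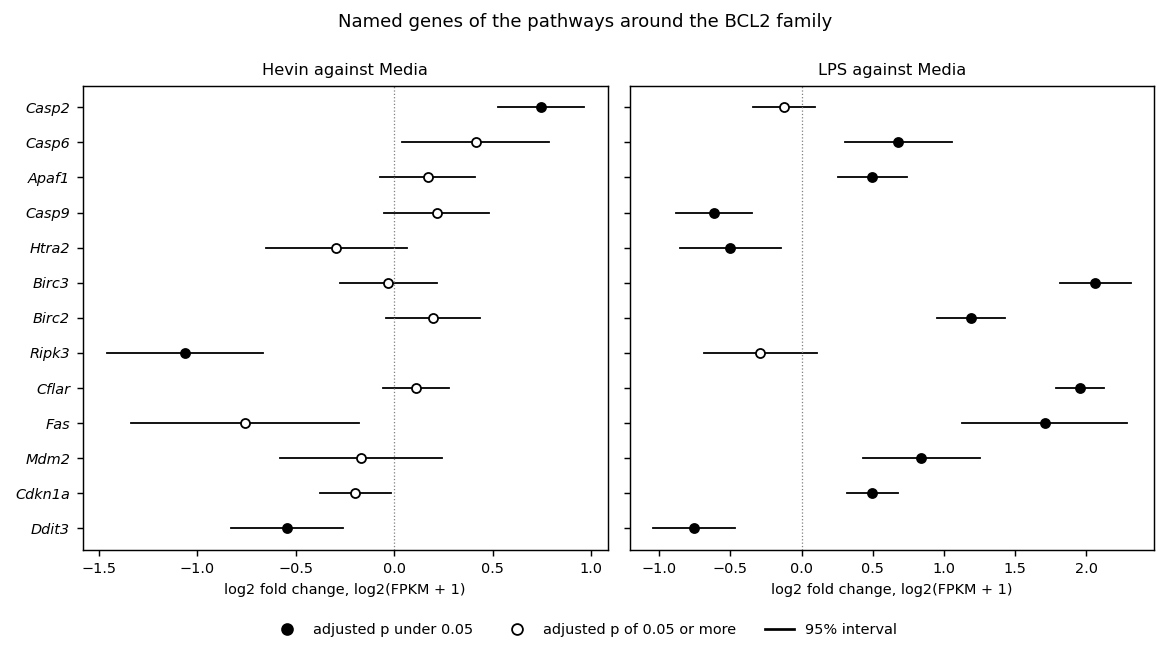
Log2 fold change (horizontal axes, log2(FPKM + 1) scale) of 13 named genes around the BCL2 family in Hevin against Media and LPS against Media, with 95% intervals from limma and filled points for an adjusted p under 0.05. In Hevin against Media 3 points are filled (Casp2, Ripk3 and Ddit3), and in LPS against Media all but Casp2 and Ripk3 are. Only genes called in either comparison were named, so filled points follow from the choice and give no share of the lists.

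Genes whose pattern over the 12 libraries was most like that of each family gene were sought among 10657 genes. The measure was the root mean square (RMS) difference of log2(FPKM + 1) after subtraction of the Media mean. The genes named are the nearest by this measure, so they lie below the median of all genes by the way they were picked. For Bcl2 these were Pde4d, Slc46a1 and Sox4, at differences of 0.165 to 0.212 against a median of 0.761 over all genes. Pde4d averaged 5.52 FPKM in Hevin, 1.49 FPKM in LPS and 1.93 FPKM in Media. For Bcl2a1b they were Stx11, Lad1 and Fam49a (0.232 to 0.261, median 1.29), for Mcl1 Abi1, Rest and Znrf1 (0.119 to 0.133, median 0.584), and for Bcl2l11 Litaf, Seh1l and Ddx6 (0.0697 to 0.0874, median 0.487). Litaf averaged 284 FPKM in Hevin, 429 FPKM in LPS and 278 FPKM in Media. For Pmaip1 they were Mir22hg, Tollip and Armcx3 (0.0949 to 0.133, median 0.505). Bax was most like Rab35, Pex5 and Mark4 (0.0511 to 0.0679, median 0.310), and Bak1 most like Tmem129, Ubtf and Cercam (0.135 to 0.158, median 0.461). The nearest of Bcl2l1 was Tonsl (0.115), of Bid Ikbkg (0.138) and of Bbc3 Ung (0.151).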

How the data were processed

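Gene expression was measured by RNA-seq in 12 libraries in 3 groups of 4. Per the labels' protocols, 100 ng of RNA went into a stranded mRNA kit with paired reads of 100 bp. The submitters' processing notes name the build mm10 and, with no role or order, edgeR 3.30.3, Bowtie2 2.3.5.1, Subread 1.6.3, featureCounts, FastQC 0.11.7 and Trimmomatic 0.39. The authors deposited 1 table of FPKM for 14541 gene symbols, of which 22 read as dates. Strand use, row filter and annotation: not given in the sources used here.

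Whole reads were recovered from the FPKM steps in all 14541 rows, each value within 0.1 of a whole number, up to a common divisor of a row's counts. FPKM equalled reads over length and library total, divided by a factor of 0.804 to 0.897 in LPS and 1.02 to 1.16 in Hevin and Media.

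Genes that reached 1 FPKM in 4 or more libraries were tested on log2(FPKM + 1) with limma 3.58.1 in R 4.3.3, with a mean-variance trend, all 12 libraries in 1 fit and Benjamini-Hochberg adjustment over 11242 genes. The pipeline was tested on simulated data. Equally numbered libraries share a group number in the column headers. In all 12 pairs of such libraries the deviations from the group mean correlated (0.230 to 0.784). The numbers are therefore taken as pairing, and the fit with the number as a block is given where it changes a call. Alternatives are pseudocounts of 0.1 and 5, other filters, other scalings, no trend, only the groups compared, a minimum fold, the block, limma-voom on recovered reads, leaving out each library and, chosen after seeing the data, voom with the block and leaving out number 2.

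The 10 genes were given by symbol. They, the other lists, the tests and the rule for further names (all listed other BCL2 genes; per other list the 2 called genes with the largest positive and the 2 with the largest negative log2 fold change in each treatment against Media; the highest marker; the 3 nearest patterns) were chosen with earlier results of these data known. Bmf, Bnip3l, Bad, Bik, Bok and Bcl2l12 were chosen for the figure after their values were seen. Lists of lymphocyte, neuron and oligodendrocyte markers were also checked: 1 of 7 lymphocyte markers was listed, at or below 1.19 FPKM, neuron markers summed to 2.44 to 20.5 FPKM and oligodendrocyte markers to 7.16 to 13.1 FPKM. Gene positions are from GENCODE M21 (GRCm38), promoters from RefSeq (GRCm38.p6).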

Additional observations from a re-analysis of the deposited data

Results flagged for a closer look

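Among 69 groups of 4 libraries (the 10 genes and 13 other BCL2 genes), 4 had 1 library apart from the other 3 by Dixon's test, and chance gives such a flag in about 1 in 20 groups. Bak1 stood at 24.4 FPKM in Media 4, against 19.3 to 19.8 FPKM in the other Media libraries. Bcl2l2 stood at 6.61 FPKM in Media 1, against 8.51 to 8.68 FPKM in the others. Bcl2l13 stood at 8.69 FPKM in LPS 1, against 7.31 to 7.51 FPKM. Bnip3l stood at 33.6 FPKM in Hevin 2, against 23.6 to 24.8 FPKM. Without the libraries numbered 2, Bnip3l was still called higher in Hevin than in Media (log2 fold change 0.69, limma adjusted p = 0.00349).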

How the results depend on the processing

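Over 25 alternatives to 89 log2 fold changes (2213 values), 2055 kept direction and side of the threshold, 45 lost a call, 71 gained one and 42 changed sign. The replicate block lost no call and gained 14. All genes called in Hevin against Media numbered 829, and 2406 with the replicate block, 2729 with voom and the replicate block, 185 with an absolute log2 fold change of at least 1, and 511 to 930 without single libraries (511 without Media 3 and 532 without Hevin 4). Members called there numbered 2, and 1 with a filter of 5 FPKM, which removes Bcl2, or with the minimum fold. In LPS against Media the 4 members became 7 with TPM scaling, 7 with the replicate block, 8 with voom and the replicate block and 1 with the minimum fold, and the 2897 genes became 6284, 4914, 4957 and 601 in this order. In Hevin against LPS the minimum fold left 2 of 6 members and 954 of 4685 genes. Leaving out number 2 gave 2, 3 and 6 members in the order of the comparisons. Sign changes under TPM scaling in LPS against Media were Pmaip1 -0.067, Bid -0.14, Bax -0.37 and Bcl2l13 -0.32, in Hevin against LPS Bbc3 0.34, Bax 0.27, Bcl2l2 0.40 and Bcl2l13 0.40, and in Hevin against Media Birc3 0.021. Upper quartile scaling turned Bax (-0.11) and Bcl2l13 (-0.065) in LPS against Media and Bbc3 (0.046), Bcl2l2 (0.10) and Bcl2l13 (0.11) in Hevin against LPS. Quantile normalization turned Mcl1 (0.0061) and Birc3 (0.012) in Hevin against Media, Bax (-0.44), Bok (0.013) and Cdkn1a (-0.19) in LPS against Media and Bax (0.38) in Hevin against LPS. Voom turned Bok (0.15) in LPS against Media, voom with the replicate block turned Bbc3 (0.0071) there, and leaving out number 2 turned Bbc3 (0.065) in Hevin against LPS. Without single libraries the range crossed 0 for Bbc3 (-0.20 to 0.019) and Birc3 (-0.12 to 0.041) in Hevin against Media, for Bbc3 (-0.26 to 0.18), Bax (-0.065 to 0.063), Bok (-0.31 to 0.047) and Bcl2l13 (-0.011 to 0.070) in LPS against Media, and for Bbc3 (-0.28 to 0.16), Bid (-0.061 to 0.17), Bcl2l2 (-0.043 to 0.045) and Bcl2l13 (-0.031 to 0.042) in Hevin against LPS. The cause of these changes was not tested. Reads limit the low genes most, with 2 to 155 for Bok and 14 to 70 for Bik.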

Other observations

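Ratios of FPKM within a library do not depend on its scaling factor. Bcl2l11 per Pmaip1 was 1.55 to 1.64 in Hevin, 1.12 to 1.50 in LPS and 0.881 to 1.12 in Media. No library of either treatment fell below the highest Media library, but LPS 3 (1.1165) barely exceeded Media 1 (1.1159). Pmaip1 per Mcl1 was 0.142 to 0.159 in Hevin, 0.120 to 0.180 in LPS and 0.178 to 0.257 in Media. Bmf per Bcl2l11 was 0.171 to 0.178 in Hevin, 0.00675 to 0.0191 in LPS and 0.0480 to 0.0779 in Media, with no overlap of the 3 groups. Bax per Bak1 was 7.16 to 9.85 in Hevin, 10.7 to 20.0 in LPS and 8.11 to 12.2 in Media. These ratios were formed after the values were seen and carry no test.

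Within the Bcl2a1 cluster, Bcl2a1b held 75.2% ± 1.25 of the summed FPKM in Hevin, 65.4% ± 1.74 in LPS and 71.5% ± 2.18 in Media (SD, n = 4 each), and Bcl2a1d held 15.7% ± 1.34 in Hevin, 22.2% ± 1.14 in LPS and 18.4% ± 1.17 in Media. The copies share reads, and the part of the counting of such reads in these shares was not tested.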
